A study of Homo sapiens with 8 samples.

Results

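The p53 target genes described here are 33 genes whose transcription p53 is known to activate, leaving out the cyclin-dependent kinase inhibitors, the death receptors and GDF15. Members were all probe sets of the Affymetrix HG-U133A array whose annotation gives 1 of these gene symbols. A probe set is a group of short probes that together read 1 transcript, and 42 probe sets named 28 of the 33 genes, out of 11963 genes named on the array. BBC3 shared its only probe set with 2 microRNA genes, and BTG2, TP53INP1, RRM2B and FDXR had no probe set in the annotation used and were not analysed here. Of the 28 genes, 25 were bright enough to be tested, and MDM4, POLH and TRIM22 were not.

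p53 is a transcription factor that is held at a low level by the ubiquitin ligase MDM2 and accumulates when DNA is damaged. It then binds a response element made of a pair of like decamers near its target genes. Their products halt the cell cycle, repair DNA, start apoptosis, or shut p53 off again. Platinum drugs crosslink DNA, a form of damage that activates this pathway in cells with working p53. The labels do not name the cell line.

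Total RNA was measured in 1 cell line of human lung adenocarcinoma, a non-small cell lung cancer (NSCLC), after 24 h of treatment. The 4 groups were the combination of rosiglitazone and carboplatin, whose doses the labels do not restate, carboplatin alone at 10 µM, rosiglitazone alone at 1 µM, and control (control medium in the treatment protocol, DMSO/control in the design text). Carboplatin is a platinum drug, and rosiglitazone is a ligand of the nuclear receptor PPARγ. Each group had 2 arrays, 8 in all, and the labels do not say whether these came from separate cultures, so a p-value here rests on the spread of arrays that may differ only technically. RNA was taken in bulk, so fewer cells with a transcript and less of it per cell cannot be told apart.

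Among markers of the labelled cell type, the keratins KRT18, KRT7 and KRT8 lay at or above the 98.2th percentile of all probe sets, while EPCAM and the lung lineage factor NKX2-1 were below the filter on dim probe sets. Of 7 epithelial markers 6 passed the filter, as did 3 of 4 lung lineage, 1 of 2 leukocyte, 2 of 4 fibroblast and 0 of 3 endothelial markers on the array. On a scale whose floor is near 4, the fibroblast markers COL1A1 (6.95 to 7.37) and DCN (5.50 to 6.28) and the leukocyte marker CD3E (5.59 to 6.58) passed, and COL1A1 lay above the epithelial CDH1 in percentile (71.1 against 65.9). Those that did not pass included the leukocyte marker PTPRC (4.08 to 4.96) and the fibroblast marker LUM (4.02 to 4.11). The part of other cell types in the results was not tested. The median deposited signal was 37.2 and 52.2 in the combination arrays, 37.6 and 44.6 with carboplatin, 46.4 and 54.3 with rosiglitazone, and 45.8 and 36.2 in control. Levels below are log2(signal + 16) after quantile normalization, which gives all arrays the same distribution of values, and they are given in the order of array 1 and array 2. Differences are on the same log2 scale with the standard error (SE) from limma, from 2 arrays per group, and p-values of limma were adjusted by the Benjamini-Hochberg method across the 13338 probe sets tested.

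The p53 response element could be read in the RefSeq promoter windows (250 bases before to 50 after a transcription start, GRCh38.p14) that 28 of the 33 genes had. The p53 consensus, a run of 20 bases with its 4 core C and G bases intact and at most 2 mismatches elsewhere, on either strand, was found in windows of 3 members, or 10.7% of those with a window. Over all 27305 genes with a window the share was 0.359%. The 3 stretches are shown because they carry the sequence feature by which p53 finds its targets, and their genes include an inhibitor of p53 and a DNA repair gene described below. Capitals mark the element:
MDM2, chr12:68808908-68808957, plus strand: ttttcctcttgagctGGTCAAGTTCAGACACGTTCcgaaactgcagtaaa
DDB2, chr11:47214954-47215003, plus strand: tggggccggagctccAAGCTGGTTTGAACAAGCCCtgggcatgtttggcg
AEN, chr15:88621291-88621340, plus strand: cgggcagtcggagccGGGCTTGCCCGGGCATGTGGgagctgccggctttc
The MDM2 element lies 751 bases after the outermost annotated start of the gene, ahead of a pair of later transcription starts, and has 2 mismatches. The DDB2 element spans the start of 1 of the 2 windows of the gene and has 1 mismatch, and that of AEN, with 2 mismatches, ends 15 bases before a later start that lies well inside the annotated gene, the element being 16623 bases after the outermost start. A match describes the letters in the window and is not a measured binding site. The windows of the other members held no match, which says nothing about elements farther away.

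Carboplatin against control showed the p53 targets mostly higher, each by a modest amount, with no single member past the threshold. Of the 25 members 24 were higher, against 45.5% of the 8030 genes tested, and the exception, EI24, an endoplasmic reticulum protein, was at -0.01. Their median difference was 0.34, against -0.02 over all genes. In 17 of the 25 members both carboplatin arrays lay above both control arrays, against 14.5% of all genes, and in none did both lie below, against 20.7%. No member passed (smallest adjusted p = 0.879 from limma), in a contrast where 2 probe sets, or 0.0150%, passed. There were 8 members higher at an unadjusted p under 0.05, against 2.28% of all genes, and none lower, against 2.57%.

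Carboplatin added to rosiglitazone was measured on 4 other arrays. For the combination against rosiglitazone alone 19 of 25 members were higher, against 52.8% of all genes, with a median of 0.39 against 0.01. That median was 0.177 without rosiglitazone array 2, and with the deposited scaling it was 0.23, where that of all genes was -0.136. Both combination arrays lay above both rosiglitazone arrays in 14 members, against 17.1% of all genes, and below them in 1, PERP, against 13.7%. Again no member passed with limma (smallest adjusted p = 0.16, for DDB2), where 3 probe sets, or 0.0225%, passed, and 11 members were higher at an unadjusted p under 0.05, against 2.17% of all genes, and none lower, against 1.81%. These 2 contrasts share no array. Of the members, 18 were higher in both, against 22.6% of all genes. None was lower in both, against 1944 of the 8030 genes tested. In 10 members both arrays with carboplatin lay above both without it in either setting, against 2.39% of all genes. Across the 25 genes the differences of the 2 contrasts had a Pearson r of 0.41, and across all 8030 genes of -0.06. These are descriptions across genes, which are not independent replicates.

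**Figure D1:**
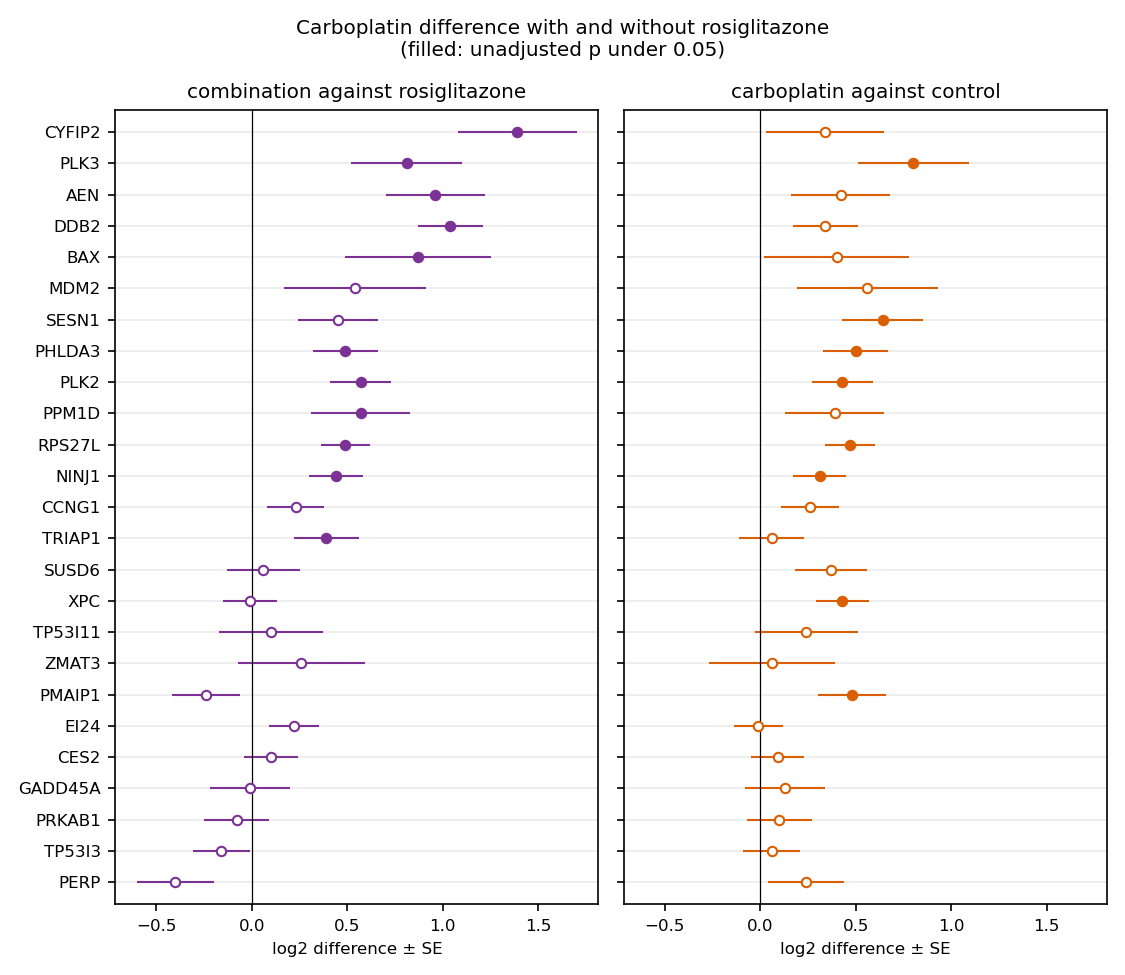
Log2 difference ± SE of the 25 p53 target genes tested (rows, ordered by the mean carboplatin effect) for the combination against rosiglitazone and for carboplatin against control; filled points have an unadjusted p under 0.05 and no point passed after adjustment. Of the points, 19 lie above 0 on the left and 24 on the right.

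With all 8 arrays, the 4 with carboplatin against the 4 without it (the mean of the 2 contrasts above, called the carboplatin main effect), 23 of 25 members were higher, against 48.9% of all genes, with a median of 0.25 against 0.00 (0.145 against -0.101 with the deposited scaling). In 4 members, DDB2, RPS27L, PLK3 and SESN1, all 4 arrays with carboplatin lay above all 4 without it, against 1.13% of all genes, and in none did they lie below, against 1.21%. The 12 members with an unadjusted p under 0.05 were all higher, against 2.12% of all genes higher and 1.76% lower, and none passed (smallest adjusted p = 0.253 from limma), where 4 probe sets, or 0.0300%, passed. Counting each array on its own, 19 and 20 of the 25 members were above their 8-array mean in the combination arrays and 20 and 20 in the carboplatin arrays. The counts were 10 and 4 in the rosiglitazone arrays and 8 and 8 in the control arrays. They depend on each other, since each gene is set against the mean of the same 8 arrays. The median deviation from those means ran over the arrays from -0.16 to 0.26 for the members. Over all genes it ran from -0.01 to 0.03.

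**Figure D2:**
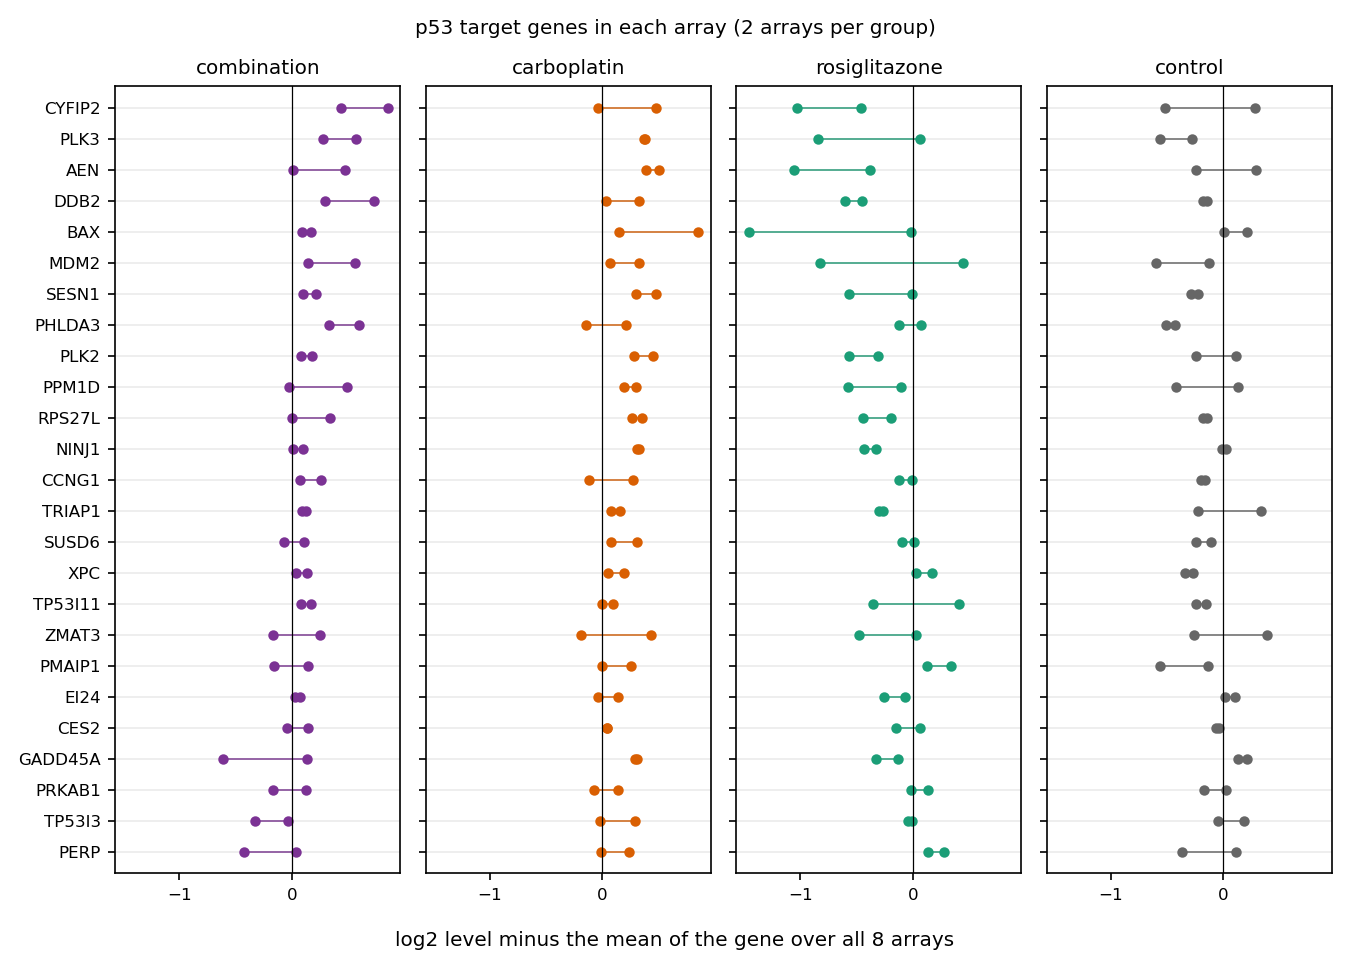
Level of each of the 25 tested p53 target genes (rows) in each array, as the log2 difference from the mean of that gene over all 8 arrays; points are arrays and lines join the 2 arrays of a group. In the combination and carboplatin panels 19 to 20 points of an array lie right of 0, in the rosiglitazone and control panels 4 to 10.

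Of the genes that feed back on p53, 3 were tested and none passed. MDM2, the ubiquitin ligase of p53, was at 6.44 and 6.02 in the combination, 6.20 and 5.94 with carboplatin, 6.33 and 5.05 with rosiglitazone, and 5.75 and 5.28 in control, read by probe set 217373_x_at. All arrays with carboplatin exceeded both control arrays, but rosiglitazone array 1 reached their range, and the main effect of 0.55 ± 0.26 did not pass. The other 4 MDM2 probe sets were below the filter, with means over 8 arrays of 4.46 to 4.90, near the floor of the scale. PPM1D, a phosphatase that reverses damage signalling, was at 6.62 and 7.14 in the combination, 6.84 and 6.95 with carboplatin, 6.07 and 6.55 with rosiglitazone, and 6.23 and 6.78 in control. The carboplatin arrays exceeded both control arrays and the combination arrays both rosiglitazone arrays, while control array 2 exceeded combination array 1. Its main effect was 0.48 ± 0.18. CCNG1, a cyclin that brings a phosphatase to MDM2, was at 9.41 and 9.59 in the combination, 9.22 and 9.61 with carboplatin, 9.33 and 9.21 with rosiglitazone, and 9.13 and 9.17 in control, a main effect of 0.25 ± 0.10, which was 0.15 without carboplatin array 2. Both groups with carboplatin lay above control, while rosiglitazone array 1 exceeded carboplatin array 1. MDM4, the relative of MDM2 that blocks p53 without degrading it, was below the filter at 4.17 to 4.93 over the 8 arrays.

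The DNA repair gene DDB2 had the smallest p of all members in the main effect. DDB2, a subunit of the damage sensor of nucleotide excision repair (probe set 203409_at), was at 9.60 and 9.16 in the combination, 8.90 and 9.19 with carboplatin, 8.41 and 8.26 with rosiglitazone, and 8.69 and 8.73 in control. The 4 groups did not overlap except for the combination and carboplatin, and rosiglitazone alone was the lowest. The main effect was 0.69 ± 0.12 (1.61-fold, adjusted p = 0.253 from limma). It was 1.04 ± 0.17 (2.06-fold, adjusted p = 0.16) for the combination against rosiglitazone, 0.34 ± 0.17 for carboplatin against control and 0.68 ± 0.17 for the combination against control. XPC, which recognises distorted DNA at the start of the same repair pathway, had another pattern, at 8.17 and 8.08 in the combination, 8.09 and 8.23 with carboplatin, 8.07 and 8.21 with rosiglitazone, and 7.70 and 7.77 in control. All 6 treated arrays lay above both control arrays, and the 3 treated groups overlapped. Against control XPC was at 0.39 ± 0.14 with the combination, 0.43 ± 0.14 with carboplatin and 0.40 ± 0.14 with rosiglitazone, contrasts that share the control arrays. None of these passed (adjusted p = 0.474, 0.919 and 0.371 from limma in that order). POLH, a polymerase that copies past DNA lesions, was below the filter at 4.27 to 5.00.

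Stress kinases and growth control genes gave 3 more of the 12. PLK3, a polo-like kinase of the stress response, was at 6.63 and 6.33 in the combination, 6.44 and 6.43 with carboplatin, 6.12 and 5.21 with rosiglitazone, and 5.49 and 5.77 in control. Every array with carboplatin exceeded every array without it, with a main effect of 0.81 ± 0.21 (1.75-fold). For the combination against rosiglitazone its 0.81 ± 0.29 was 0.35 without rosiglitazone array 2 and 1.27 without rosiglitazone array 1, and with a pseudocount of 64 the main effect was 0.46. The second PLK3 probe set, near the filter, had a main effect of 0.54 ± 0.31. PLK2, its relative, was at 8.70 and 8.80 in the combination, 8.90 and 9.07 with carboplatin, 8.05 and 8.31 with rosiglitazone, and 8.73 and 8.38 in control, a main effect of 0.50 ± 0.11. Both carboplatin arrays exceeded both control arrays, and control array 1 lay between the 2 combination arrays. SESN1, a sestrin that restrains growth signalling under stress, was at 6.95 and 6.83 in the combination, 7.21 and 7.03 with carboplatin, 6.73 and 6.17 with rosiglitazone, and 6.51 and 6.44 in control. Its groups with and without carboplatin did not overlap (0.54 ± 0.15). GADD45A, a growth arrest protein induced by DNA damage, had a main effect of 0.06 ± 0.15. Its per-array levels, given because its combination arrays stood apart and chosen after the values were seen, were 8.46 and 7.72 in the combination, 8.64 and 8.62 with carboplatin, 8.01 and 8.20 with rosiglitazone, and 8.55 and 8.46 in control. Both combination arrays lay below both carboplatin arrays (-0.54 ± 0.21, adjusted p = 0.69 from limma), and this difference was -0.17 without combination array 2 and -0.92 without combination array 1. PRKAB1, a regulatory subunit of the energy sensor AMPK, was at 7.66 and 7.37 in the combination, 7.67 and 7.45 with carboplatin, 7.67 and 7.52 with rosiglitazone, and 7.56 and 7.36 in control, and its groups overlapped. Its 2 probe sets differed in sign for the main effect (0.01 ± 0.12 and -0.16 ± 0.16).

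Genes of apoptosis gave differing orders of the 4 groups, and whether they differed from each other was not tested. PHLDA3, which keeps the survival kinase AKT off the membrane (probe set 218634_at), was at 8.83 and 8.56 in the combination, 8.44 and 8.08 with carboplatin, 8.30 and 8.10 with rosiglitazone, and 7.79 and 7.72 in control. Its combination arrays were above all others, both single drugs lay above control, and the single drugs overlapped. The difference was 0.93 ± 0.17 (1.91-fold, adjusted p = 0.0617 from limma) for the combination against control, 0.50 ± 0.17 for carboplatin and 0.44 ± 0.17 for rosiglitazone, and the adjusted p of the first ran from 0.0328 to 0.90 over the alternative settings. In that contrast 30 probe sets, or 0.225%, passed. AEN, a nuclease that acts in apoptosis, was at 7.78 and 7.32 in the combination, 7.82 and 7.70 with carboplatin, 6.25 and 6.93 with rosiglitazone, and 7.07 and 7.60 in control. Both rosiglitazone arrays were the lowest, and the combination arrays overlapped control. The 0.96 ± 0.26 of the combination against rosiglitazone was 0.62 without rosiglitazone array 1 and 1.29 without rosiglitazone array 2, beside 0.42 ± 0.26 for carboplatin against control. BAX, which forms pores in the mitochondrial outer membrane, was at 7.06 and 6.97 in the combination, 7.04 and 7.74 with carboplatin, 5.43 and 6.87 with rosiglitazone, and 7.10 and 6.89 in control. Rosiglitazone array 1 stood alone, and without it the 0.87 ± 0.38 of the combination against rosiglitazone was 0.15 and the main effect of 0.63 ± 0.27 was 0.27, while without rosiglitazone array 2 they were 1.56 and 0.98. The second BAX probe set had a main effect of 0.26 ± 0.19 and was at 0.14 ± 0.27 for the combination against rosiglitazone.

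CYFIP2, a subunit of an actin-regulating complex that p53 induces, was at 7.18 and 6.77 in the combination, 6.29 and 6.81 with carboplatin, 5.30 and 5.87 with rosiglitazone, and 5.81 and 6.61 in control. The combination arrays exceeded all rosiglitazone and control arrays, and the 1.39 ± 0.31 (2.62-fold) for the combination against rosiglitazone was the largest among the 25 members in any of the 7 contrasts, and was 0.85 with a pseudocount of 64. The second CYFIP2 probe set, near the filter, was at 1.13 ± 0.28 there. For carboplatin against control the 2 probe sets were at 0.34 ± 0.31 and 0.07 ± 0.28. For rosiglitazone against control they were at -0.62 ± 0.31 and -0.96 ± 0.28. PMAIP1, which encodes NOXA, a killer protein that opposes survival factors of the BCL2 family, was at 8.67 and 8.36 in the combination, 8.52 and 8.78 with carboplatin, 8.86 and 8.64 with rosiglitazone, and 8.38 and 7.96 in control (per-array levels chosen after the values were seen). Each single drug lay above control, by 0.48 ± 0.18 for carboplatin and 0.58 ± 0.18 for rosiglitazone, and the combination overlapped all 3. Without control array 2 these differences were 0.27 and 0.37, and without control array 1 they were 0.69 and 0.79. Its second probe set, far dimmer, was at 0.10 ± 0.29 and -0.05 ± 0.29 in these contrasts. The remaining apoptosis genes had main effects of -0.08 ± 0.14 for PERP, a membrane protein of cell junctions, -0.05 ± 0.11 for TP53I3, an oxidoreductase, 0.10 ± 0.09 for EI24, 0.17 ± 0.19 for TP53I11, 0.16 ± 0.23 for ZMAT3, an RNA-binding protein, and 0.22 ± 0.12 for TRIAP1, an inhibitor of apoptosis. The probe set that BBC3, which encodes the killer protein PUMA, shares with 2 microRNA genes was at 7.83 and 6.91 in the combination, 7.52 and 6.14 with carboplatin, 6.46 and 5.03 with rosiglitazone, and 6.25 and 6.86 in control. Its 2 arrays differed by 0.61 to 1.43 within every group, and which of these genes it read cannot be told apart.

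**Figure D3:**
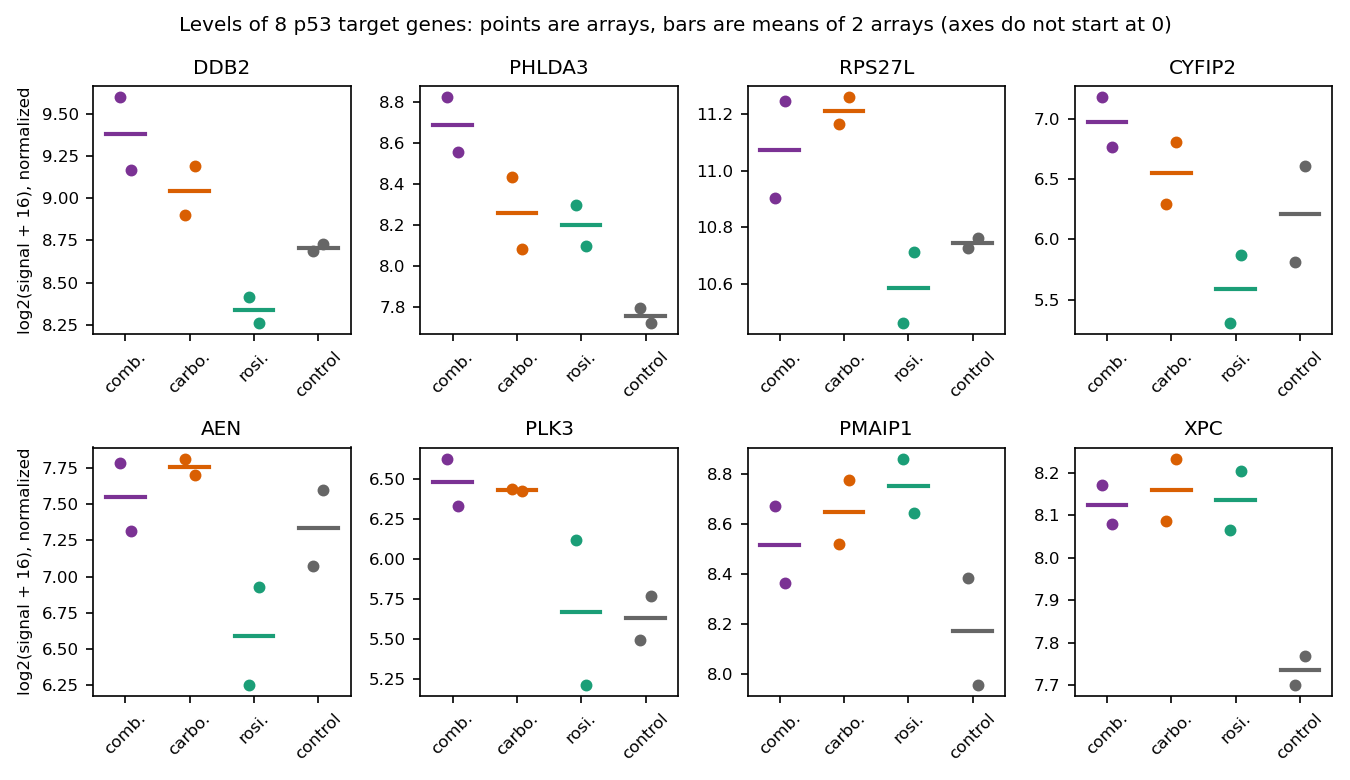
Levels of 8 p53 target genes as normalized log2(signal + 16), with 1 point per array and a bar at the mean of the 2 arrays of a group, for the combination (comb.), carboplatin (carbo.), rosiglitazone (rosi.) and control. RPS27L and PLK3 separate the groups with carboplatin from those without it, rosiglitazone is lowest for DDB2 and AEN, and control is lowest for PHLDA3, PMAIP1 and XPC.

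Of the members with other functions, RPS27L and NINJ1 had the smallest p. RPS27L, a paralog of a ribosomal protein (probe set 218007_s_at, a type that may also read related transcripts), was at 10.90 and 11.25 in the combination, 11.16 and 11.26 with carboplatin, 10.46 and 10.71 with rosiglitazone, and 10.73 and 10.76 in control. All 4 arrays with carboplatin exceeded the other 4, with a main effect of 0.48 ± 0.09 (1.39-fold, adjusted p = 0.473 from limma). NINJ1, a membrane protein that ruptures the membrane of dying cells, was at 8.20 and 8.12 in the combination, 8.41 and 8.43 with carboplatin, 7.77 and 7.67 with rosiglitazone, and 8.09 and 8.12 in control. The carboplatin arrays were the highest and the rosiglitazone arrays the lowest, and the combination arrays lay at the level of control (0.05 ± 0.14). SUSD6, a membrane protein gene, had a main effect of 0.21 ± 0.14. CES2, a carboxylesterase, was at 0.09 ± 0.10, with 0.06 and 0.19 for its other 2 probe sets. TRIM22, an antiviral protein gene, lay just below the filter of 5.38, at 5.43 and 5.30 in the combination, 5.57 and 4.95 with carboplatin, 4.92 and 5.25 with rosiglitazone, and 5.30 and 5.25 in control, and its groups overlapped.

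Combination against control asked what both drugs did together. Of 25 members 20 were higher, against 46.1% of all genes, with a median of 0.21 against -0.02, and of 0.331 without control array 2. Both combination arrays lay above both control arrays in 11 members, against 16.5% of all genes, and below them in none, against 21.6%. At an unadjusted p under 0.05 the 7 members were PHLDA3, DDB2, PLK3, XPC, RPS27L, CYFIP2 and CCNG1, all higher, against 4.43% of all genes higher and 4.31% lower, and none passed with limma. Of these, CYFIP2 (0.76 ± 0.31) was at 0.36 without control array 1 and 1.17 without control array 2, and RPS27L (0.33 ± 0.13) at 0.16 without combination array 2 and 0.50 without combination array 1. In the same contrast the second probe set of CYFIP2 was at 0.17 ± 0.28 and that of PLK3 at 0.47 ± 0.44. This contrast shares its control arrays with carboplatin against control and its combination arrays with combination against rosiglitazone.

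Rosiglitazone against control, which asked what the PPARγ ligand did alone, gave members in both directions. Of 25 members 11 were higher, against 44.1% of all genes, with a median of -0.10 against -0.03, and of 0.003 without control array 1. No member passed with limma, where 48 probe sets, or 0.360%, passed. The smallest adjusted p from limma was 0.289 over the probe sets that represent a gene and 0.239 over all member probe sets tested. Both rosiglitazone arrays lay above both control arrays in 6 members, against 17.8% of all genes, and below them in 9, against 25.0%. At an unadjusted p under 0.05, PMAIP1, XPC and PHLDA3 were higher, against 4.73% of all genes, and AEN (-0.75 ± 0.26), NINJ1 (-0.39 ± 0.14), PLK2 (-0.37 ± 0.16), BAX (-0.84 ± 0.38) and DDB2 (-0.37 ± 0.17) were lower, against 5.42%. The difference of BAX was -0.12 without rosiglitazone array 1 and -1.54 without rosiglitazone array 2, that of AEN -0.41 without rosiglitazone array 1, and that of PLK2 -0.19 without control array 1. The second BAX probe set was at -0.15 ± 0.27 for rosiglitazone against control. CYFIP2 was at -0.62 ± 0.31 there. Its second probe set, near the filter, was at -0.96 ± 0.28, with both rosiglitazone arrays below both control arrays. With the deposited scaling the median of all genes shifted to 0.20 in this contrast and that of the members to 0.127, and the differences of AEN, NINJ1, PLK2 and DDB2 were -0.49, -0.14, -0.13 and -0.14, while those of PHLDA3 and XPC were 0.68 and 0.65. The rosiglitazone arrays also enter the combination against rosiglitazone, and these 2 contrasts are not independent.

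**Figure D4:**
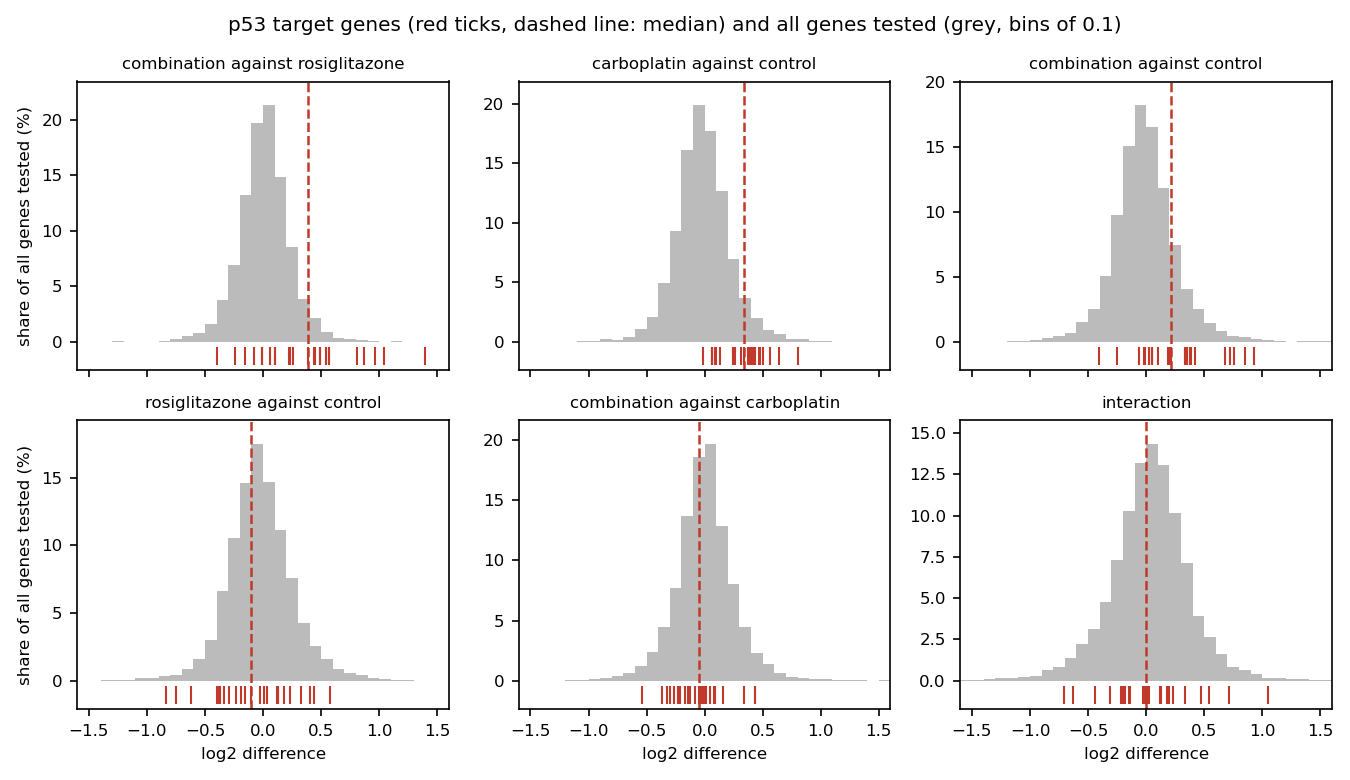
Log2 differences of the 25 tested p53 target genes (red ticks, dashed line at their median) below the distribution over all 8030 genes tested (grey bars, share of genes per bin), in 6 contrasts. The medians of the members are 0.39, 0.34 and 0.21 in the 3 panels of the upper row, and -0.10, -0.05 and 0.00 in the lower row.

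Combination against carboplatin, the difference made by rosiglitazone when carboplatin was present, had 9 of 25 members higher, against 50.5% of all genes, with a median of -0.05 against 0.00. No member passed with limma (smallest adjusted p = 0.69), where 21 probe sets, or 0.157%, passed. At an unadjusted p under 0.05 PHLDA3 was higher (0.43 ± 0.17) and GADD45A lower, against 3.52% and 2.89% of all genes. The PHLDA3 difference was 0.25 without carboplatin array 2 and 0.61 without carboplatin array 1. Both combination arrays lay below both carboplatin arrays in 5 members, GADD45A, NINJ1, PLK2, SESN1 and TP53I3, against 17.1% of all genes, and above them in PHLDA3 alone, against 18.0%. With the deposited scaling, 16 members were higher, with a median of 0.08 where that of all genes was 0.134.

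The interaction, the combination minus both single-drug effects, tests whether the carboplatin difference depended on rosiglitazone. Of 25 members 13 were above 0, against 55.2% of all genes, with a median of 0.00 against 0.04, and no probe set passed, or 0% (limma). At an unadjusted p under 0.05 DDB2 (0.71 ± 0.24) and CYFIP2 (1.05 ± 0.44) were above 0, against 2.88% of all genes, and PMAIP1 (-0.71 ± 0.26) and PERP (-0.63 ± 0.29) below it, against 2.34%. Without control array 2 the interaction was 0.65 for CYFIP2, -0.39 for PERP and -0.50 for PMAIP1. Without control array 1 these values were 1.44, -0.87 and -0.93. The interaction of DDB2 was 0.49 without combination array 1 and 0.92 without combination array 2. The second probe set of PMAIP1 had an interaction of 0.12 ± 0.41, and that of CYFIP2 1.06 ± 0.39. For PLK3 the carboplatin differences of 0.81 and 0.80 gave an interaction of 0.01 with a 95% interval from -0.89 to 0.92. For RPS27L it was 0.02, from -0.38 to 0.42, and for PHLDA3 -0.01, from -0.53 to 0.51. With 2 arrays a group, an interaction of any size within these intervals was not excluded for these genes.

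Other genes of the pathway were read from further lists. Of the targets in other families, CDKN1A, which encodes the kinase inhibitor p21, was at 9.34 and 8.75 in the combination, 9.10 and 9.06 with carboplatin, 7.48 and 7.55 with rosiglitazone, and 7.43 and 7.62 in control. Its main effect of 1.54 ± 0.13 passed (adjusted p = 0.00167 from limma), as did the 1.23 ± 0.11 of GDF15, a stress cytokine (adjusted p = 0.00218). The death receptor genes TNFRSF10B (0.47 ± 0.10) and FAS (0.71 ± 0.19) did not pass. All 5 of that list were higher in either carboplatin contrast. A list of 21 further p53 targets had 15 higher and 6 lower for carboplatin against control and 16 higher for the combination against rosiglitazone, against 45.5% and 52.8% of all genes, with medians of 0.20 and 0.18 and none past the threshold. The differences ran from -0.67 to 0.64 in the first contrast and from -0.65 to 0.64 in the second. In the first, 6 genes were higher and 2 lower at an unadjusted p under 0.05 from limma, against 2.28% and 2.57% of all genes. The smallest p-values of this list in the main effect were those of EPS8L2, an actin regulator (0.60 ± 0.12), RAP2B, a small GTPase (0.49 ± 0.12), PLXNB2, a semaphorin receptor (0.52 ± 0.14), and TIGAR, a regulator of glycolysis (0.33 ± 0.11). Every array with carboplatin exceeded every array without it in 5 of the 21 genes, these 4 among them, against 1.13% of all genes.

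Genes that act on p53, and genes expected downstream of p21, were also read. Of 18 regulators and cofactors 8 were higher and 10 lower in the main effect, against 48.9% of all genes higher, with a median of -0.04 and none past the threshold. CHEK1, a checkpoint kinase, was at -0.34 ± 0.15, USP7, which removes ubiquitin from p53 and MDM2, at 0.16 ± 0.08, TRIM28, a corepressor, at 0.14 ± 0.07, and TP53BP1, a repair factor, at -0.15 ± 0.11. Of 20 cell cycle genes known to fall when p21 is induced, 4 were higher and 16 lower in the main effect, against 48.9% of all genes higher, with a median of -0.13 and none past the threshold. For rosiglitazone against control, where CDKN1A was at -0.02 ± 0.18, 8 of the 20 were higher and 12 lower. Over all genes 44.1% were higher there, and the median was -0.12 for the list against -0.03 over all genes. Beside CHEK1, which is in both lists, the smallest p-values were those of CDC20, an activator of mitotic exit (-0.26 ± 0.07), MCM5, a replicative helicase subunit (-0.19 ± 0.10), and the mitotic kinase gene AURKA (-0.35 ± 0.19). For the combination against rosiglitazone CDC20 was at -0.09 and MCM5 at 0.03.

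**Figure D5:**
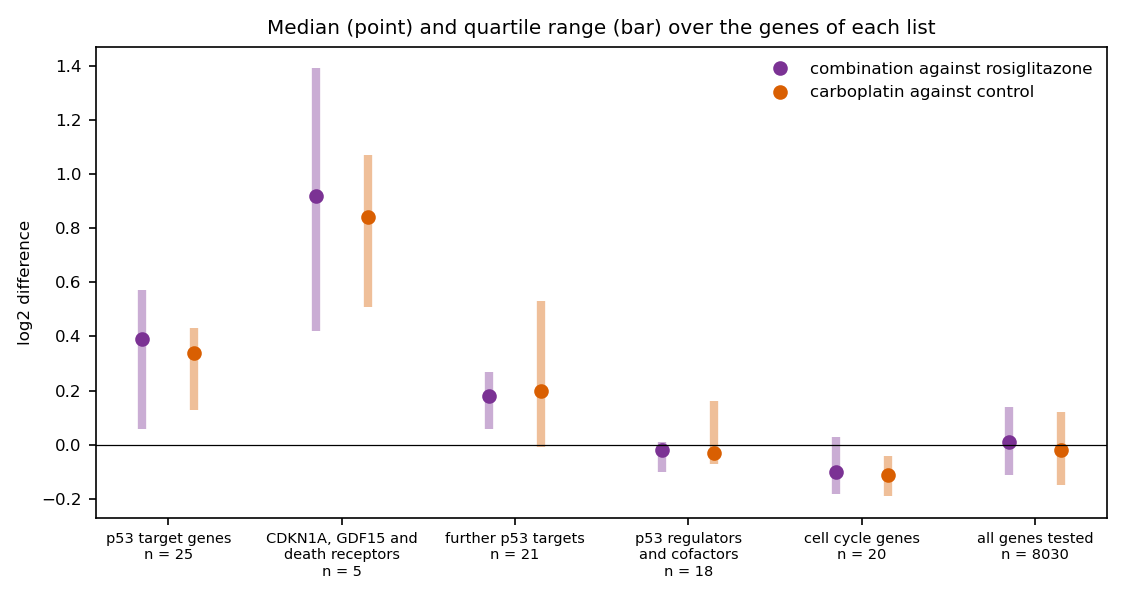
Median (point) and quartile range (bar) of the log2 differences over the genes of each list, for the combination against rosiglitazone and carboplatin against control. The medians are 0.39 and 0.34 for the p53 target genes and 0.18 and 0.20 for the further targets, against 0.01 and -0.02 over all genes tested.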

How the data were processed

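Probe set signals of 8 HG-U133A arrays, 2 in each of 4 groups set by the sample titles, were used. The deposited values are intensity values on a linear scale from 0.0322 to 14940.6, and what software, background correction and scaling made them is not stated in the labels or the file. Per the labels' protocols, RNA was amplified from an oligo-dT primer.

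Signals were taken as log2(signal + 16), which understates changes of dim genes, and quantile normalized (limma 3.58.1, R 4.3.3), since array medians spanned 0.43. The 68 control probe sets and those with a mean below the 40th percentile were left out, and 13338 remained. The probe set of highest mean represented each of 8030 genes. Only probe sets with 1 symbol (19071 of 22283) were named. All arrays entered 1 linear model of group means (lmFit, eBayes with a trend, 4 residual and 7.1 prior degrees of freedom), two-sided, with a threshold of 0.05 after adjustment over all probe sets of a contrast, for 7 contrasts. The fit was tested on simulated data with shifts larger than most member differences given here. That test does not show how often such smaller differences would pass.

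Members and lists were chosen with earlier results of these data known. Arrays were listed per gene for the 14 members of smallest p in the main effect, for members whose probe sets differ in sign and for 1 member below the filter, and up to 4 genes per other list were named. Promoter sequences are RefSeq's. The number of arrays limits the precision, and no detection calls were used. Alternatives were 2 other scalings, pseudocounts of 1 and 64, omitting the filter or raising it to the 60th percentile, no trend, the replicate number as a block, the mean over probe sets of a gene, and leaving out each array. Array brightness as a covariate was chosen after seeing the data.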

Additional observations from a re-analysis of the deposited data

How the results depend on the processing

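No member of the p53 target list passed the threshold under most settings, the exception being PHLDA3 for the combination against control. The count of members past the threshold in that contrast was 1 with the filter at the 60th percentile (adjusted p = 0.0416 from limma), 1 with the replicate number as a block (0.045) and 1 with array brightness added as a covariate, a choice made once the data were seen (0.0328), and over all alternatives its adjusted p ran to 0.90. Single members were followed under the alternatives only in contrasts where their unadjusted p from limma was under 0.05 in the main fit. Differences near 0 were thus left out, and their signs were not followed. Of the values followed, 873 kept their direction and side of the threshold, 3 (those of PHLDA3) moved past it and 0 changed sign. Part of the 873 could not change direction, since omitting the trend or adding the replicate block leaves a difference as it is. Leaving out an array that a contrast does not use hardly moves it either. The count is therefore not a measure of stability.

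Among the counts of members higher, that for the combination against carboplatin was 16 with the deposited scaling and 5 with the filter at the 60th percentile. The deposited scaling moved the median of all genes by itself, to -0.136 for the combination against rosiglitazone, 0.20 for rosiglitazone against control, 0.134 for the combination against carboplatin and -0.101 for the main effect. With it the share of all genes above 0 was 23.2% for the combination against rosiglitazone and 80.2% for rosiglitazone against control. The median of the members with it was 0.145 in the main effect, 0.08 for the combination against carboplatin, 0.304 for the combination against control, 0.23 for the combination against rosiglitazone, -0.075 for the interaction and 0.127 for rosiglitazone against control. With median scaling it was 0 for the combination against carboplatin and 0.066 for the interaction. For carboplatin against control it was 0.425 with a pseudocount of 1 and 0.264 with 64, and for the combination against rosiglitazone 0.275 with a pseudocount of 64, 0.271 with no filter and 0.31 with the filter at the 60th percentile. With that filter it was -0.135 for the combination against carboplatin. With array brightness as a covariate it was 0.27 for the combination against control, -0.049 for the interaction and -0.164 for rosiglitazone against control. The cause of these moves was not tested.

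Counts of all probe sets past the threshold depended on the setting. For carboplatin against control they were 0 with the deposited scaling, median scaling, no filter, no trend or the replicate block. For the main effect they were 1 with the deposited scaling, 2 with no filter and 2 with no trend. For the combination against rosiglitazone they were 1 with the deposited scaling and 0 with no filter, no trend or the replicate block. For the combination against carboplatin they were 9 and 8 under deposited and median scaling, and 6 and 5 when the filter or the trend was omitted. For the combination against control they were 16, 15, 12 and 5 under those settings in that order, and 46 with the filter at the 60th percentile. For rosiglitazone against control they were 24, 18, 6 and 6 in the same order, and 19 with array brightness as a covariate. For the interaction the count was 3 with the deposited scaling.

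Leaving out 1 array at a time, with a lone array assumed to vary like the other groups, gave 21 to 25 members higher for carboplatin against control, 18 to 21 for the combination against rosiglitazone, 21 to 25 for the main effect, 19 to 20 for the combination against control, 8 to 13 for rosiglitazone against control, 9 to 12 for the combination against carboplatin and 10 to 14 for the interaction. The medians in that order ran from 0.303 to 0.366, 0.177 to 0.387, 0.242 to 0.362, 0.194 to 0.331, -0.124 to 0.003, -0.08 to -0.003 and -0.086 to 0.084. The lowest value for the combination against rosiglitazone came without rosiglitazone array 2. Counts of probe sets past the threshold in that order ran from 0 to 2, 0 to 3, 2 to 4, 9 to 31, 3 to 49, 4 to 23 and 0 to 0, and no member passed in any of these fits.

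Deviations of arrays with the same replicate number from their group means correlated at -0.11 to 0.25, so the numbers were not taken to pair the arrays, and the block is given only as an alternative. With 2 arrays per group, brightness over background and the number of arrays limit what can be seen: MDM4, POLH and TRIM22 could not be tested.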
